A study of Rattus norvegicus with 8 samples.

Results

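The 10 genes described here encode proteins in the mitochondrial genome of the rat, and were chosen by symbol from the 28909 symbols of the count table. They are Mt-nd1, Mt-nd2, Mt-nd4 and Mt-nd5 of respiratory complex I, Mt-cyb of complex III, Mt-co1, Mt-co2 and Mt-co3 of complex IV, and Mt-atp6 and Mt-atp8 of complex V, the ATP synthase. All 10 passed the filter on low counts, which asked for over 20 reads in 2 or more libraries and kept 14309 genes. Primary hippocampal neurons of Sprague-Dawley rats were grown on filter inserts whose pores let processes but not cell bodies pass, so that RNA could be taken from somata above and from processes below. Cultures received the GABA-A receptor antagonist picrotoxin (PTX) for 48 h, from day in vitro 18 to 20, or stayed as controls. By the study's methods the controls were given the vehicle, ethanol. Each of the 4 conditions (control somata, PTX somata, control processes, PTX processes) had 2 ribosome-depleted RNA-seq libraries, numbered replicate 1 and replicate 2. The labels do not say whether the 2 libraries of a condition came from separate cultures, and the p-values measure only the spread between these libraries, which may be technical.

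The mitochondrial genome is copied as long RNAs that are cut into separate mRNAs, tRNAs and rRNAs, and its mRNAs are translated on ribosomes inside the organelle. Its protein products are core subunits of the respiratory chain and of the ATP synthase, and each of these complexes also holds subunits that are encoded in the nucleus and imported. Complex II has nuclear-encoded subunits only. In neurons, mitochondria are carried along axons and dendrites, so mitochondrial mRNAs are found far from the nucleus.

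The scale on which the libraries are compared matters for these genes. Totals ran from 12290890 to 14520831 counts in the 4 soma libraries and from 15120334 to 18455662 in the 4 process libraries. The 2 mitochondrial rRNA rows (AY172581.24 and AY172581.9) held 21.1 to 24.8% of the counts in somata and 64.9 to 68.3% in processes, although the libraries were rRNA-depleted. How well the depletion removed these rRNAs in each library was not tested. Levels are therefore given as CPM (counts scaled to a common library size of 1e+06) after TMM scaling, in which the bulk of the genes is held level between libraries and which is not a share of all reads. The scaling factors were 1.81 to 1.93 in somata and 0.486 to 0.570 in processes, and scales that use the rRNA or the mitochondrial mRNAs themselves are set beside this one below. No transcript lengths were used, so levels are compared between libraries for one gene and never between genes.

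All 10 mRNAs were higher in processes than in somata, in control and in PTX cultures, on the TMM scale, whereas 9 and 8 of them were lower per mitochondrial rRNA. In control cultures the log2 fold change ran from 2.72 for Mt-co1 to 3.91 for Mt-atp8, with a median of 3.01, which is 8.05-fold. In PTX cultures it ran from 2.99 for Mt-co1 to 4.12 for Mt-atp8, with a median of 3.22, which is 9.30-fold. All 10 were called higher in both comparisons, where 11.6% of all tested genes were called higher in control cultures and 11.4% in PTX cultures (edgeR's quasi-likelihood test, Benjamini-Hochberg adjusted p below 0.05 and an absolute log2 fold change above 1). The adjusted p-values of the 10 lay between 7.19e-07 and 3.61e-05 in control cultures and between 5.90e-07 and 2.62e-05 in PTX cultures. The soma and process libraries of every member did not overlap, as was so of 35.9% of all tested genes in this direction in control cultures and 36.2% in PTX cultures. In bulk libraries a different share of a cell type and a different amount of RNA per cell cannot be told apart.

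**Figure D1:**
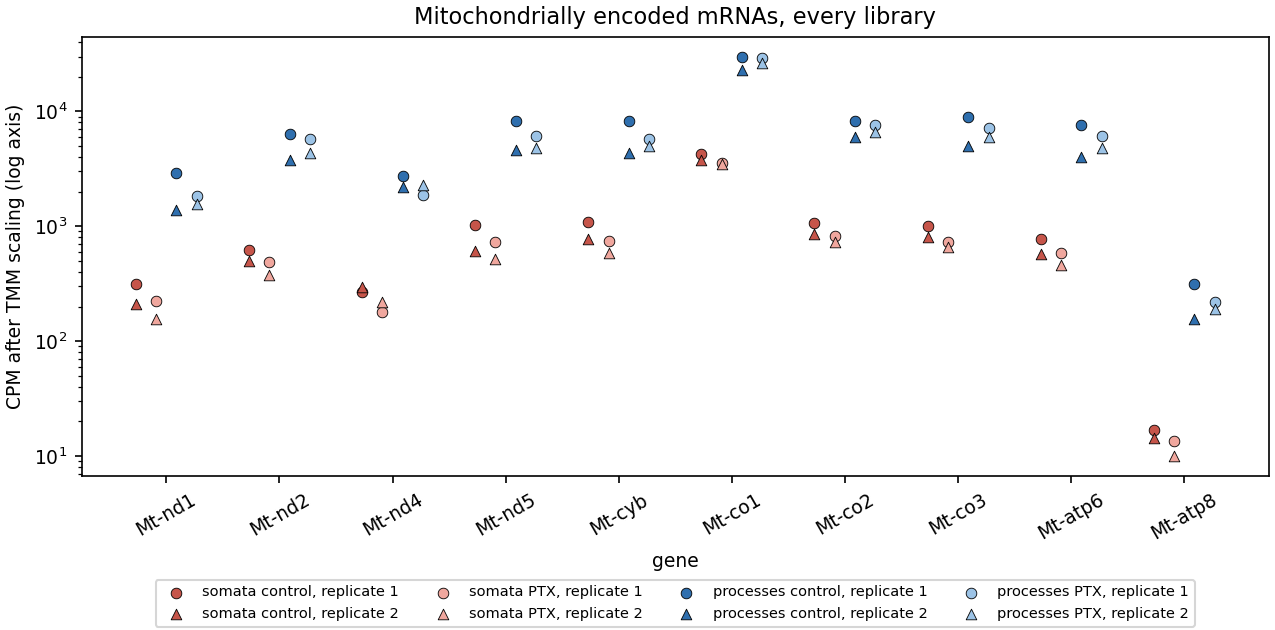
Level of each of the 10 mRNAs (CPM after TMM scaling, log axis) in each of the 8 libraries, with circles for replicate 1 and triangles for replicate 2, red for somata and blue for processes, and lighter shades for PTX. For every gene the 4 process libraries lie above the 4 soma libraries on this scale (per mitochondrial rRNA 9 of the 10 are lower in control processes), and Mt-atp8 has the widest gap.

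Among the complex I subunits, Mt-nd1, which encodes part of the membrane arm where ubiquinone is bound, had 315 and 209 CPM in control somata and 221 and 156 CPM in PTX somata. In processes it had 2901 and 1392 CPM in controls and 1837 and 1561 CPM with PTX. The first control process library was the highest of the 8, and the lowest process library was still above the highest soma library. The log2 fold change of processes against somata was 3.03 (SE 0.333) in control and 3.17 (SE 0.335) in PTX cultures.

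Mt-nd2, another membrane arm subunit, had 620.3 and 494 CPM in control somata, 491 and 375 CPM in PTX somata, 6356 and 3760.3 CPM in control processes and 5699 and 4359 CPM in PTX processes. Replicate 1 was the higher library in each of the 4 conditions, and the compartments lay far apart. The log2 fold change was 3.18 (SE 0.267) in control and 3.54 (SE 0.272) in PTX cultures, the second highest of the 10 in both.

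Mt-nd4 encodes a proton-pumping subunit of complex I and had 269 and 293 CPM in control somata and 181 and 219 CPM in PTX somata. It had 2745 and 2208 CPM in control processes and 1887 and 2275 CPM in PTX processes. Unlike the other 9 it was higher in replicate 2 in 3 of the 4 conditions, the exception being control processes. Its log2 fold change was 3.14 in control and 3.38 in PTX cultures, with the smallest SE of the 10 (0.172 and 0.174).

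Mt-nd5, also a proton-pumping subunit, had 1022 and 605 CPM in control somata, 732 and 521 CPM in PTX somata, 8262 and 4612 CPM in control processes and 6161 and 4827 CPM in PTX processes. Replicate 1 was the higher library in all 4 conditions. The compartment difference was 2.98 (SE 0.326) on the log2 scale in control and 3.13 (SE 0.328) in PTX cultures.

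Mt-cyb, the cytochrome b of complex III, had 1089 and 768 CPM in control somata and 748 and 587 CPM in PTX somata. It had 8185 and 4322 CPM in control processes and 5784 and 4944 CPM in PTX processes. The pair of control process libraries differed from each other more than any other pair for this gene, and both were above all soma libraries. The log2 fold change was 2.75 (SE 0.291) in control and 3.01 (SE 0.294) in PTX cultures.

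Of the complex IV genes, Mt-co1, the catalytic subunit of cytochrome c oxidase, had 4251 and 3773 CPM in control somata, 3529 and 3475 CPM in PTX somata, 29902 and 22784 CPM in control processes and 29316 and 26355 CPM in PTX processes. It had the closest soma replicates of the 10 with PTX and the smallest compartment difference, 2.72 (SE 0.183) in control and 2.99 (SE 0.185) in PTX cultures on the log2 scale.

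Mt-co2, which takes up electrons from cytochrome c, had 1059 and 852 CPM in control somata, 822 and 731 CPM in PTX somata, 8273 and 5949 CPM in control processes and 7614 and 6589 CPM in PTX processes. Mt-co3, the third mitochondrially encoded core subunit, had 1002 and 800.1 CPM in control somata, 734 and 661 CPM in PTX somata, 9004 and 4952 CPM in control processes and 7155 and 6033 CPM in PTX processes. Both genes were higher in replicate 1 in every condition, and for both the control somata lay above the PTX somata without overlap. Their log2 fold changes were 2.90 (SE 0.198) and 2.95 (SE 0.261) in control cultures.

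Mt-atp6, the subunit of the ATP synthase that forms its proton channel, had 768 and 576 CPM in control somata and 579 and 460.4 CPM in PTX somata. It had 7533 and 4009 CPM in control processes and 6049 and 4833 CPM in PTX processes. The log2 fold change was 3.10 (SE 0.289) in control and 3.39 (SE 0.293) in PTX cultures.

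Mt-atp8, a small membrane subunit of the ATP synthase, had 16.9 and 14.3 CPM in control somata, 13.4 and 10.03 CPM in PTX somata, 313 and 155 CPM in control processes and 219 and 191 CPM in PTX processes. Behind these levels stand 237 to 397 reads in each soma library and 1320 to 2806 in each process library, the lowest counts among the 10. The counting error of the lowest was 6.50%, and the CV between replicates of Mt-atp8 ran from 9.64% in PTX processes to 47.7% in control processes. The log2 fold change of Mt-atp8 was 3.91 (SE 0.295) in control cultures, a 15.0-fold difference, and 4.12 (SE 0.299) in PTX cultures, a 17.4-fold difference.

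Leaving out any single library left all 10 genes called in both compartment comparisons, and the median log2 fold change of control cultures then lay between 2.54 and 3.33. Both ends came from leaving out a control process library, the lower without replicate 1 and the higher without replicate 2. In that condition replicate 1 was 1.24 times (Mt-nd4) to 2.08 times (Mt-nd1) replicate 2, and without it the log2 fold change was 2.41 for Mt-nd1 and 3.31 for Mt-atp8. Within replicate 1 alone the process to soma log2 ratios of control cultures ran from 2.81 to 4.21, and within replicate 2 from 2.49 to 3.43.

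The remaining transcripts of the mitochondrial genome went the same way. All 19 of its rows that passed the filter were called higher in processes in both comparisons. Of all tested genes 11.6% were called higher in control and 11.4% in PTX cultures. Among the 19 were Mt-nd3, Mt-nd4l and Mt-nd6, the other 3 protein genes, which all belong to complex I. Mt-nd4l and Mt-nd6 had log2 fold changes of 2.98 (SE 0.222) and 3.18 (SE 0.310) in control cultures. Mt-nd3 had 2.90 with an SE of 0.931, and its replicates differed 2.55- to 6.31-fold within conditions. Mt-nd6 is encoded on the opposite strand to the others, and whether strand was used in counting is not stated in the sources used here, so its reads and antisense reads cannot be told apart. The 2 rRNA rows had log2 fold changes of 3.28 (SE 0.223) for AY172581.24 and 3.47 (SE 0.304) for AY172581.9, in control cultures, above every one of the 10 mRNAs but Mt-atp8 there, and in PTX cultures AY172581.24 stood at 3.46, below Mt-nd2. The 4 tRNA rows that passed ran from 2.29 for AY172581.10 to 3.46 for AY172581.18, and 18 further rows of the mitochondrial genome did not pass. Fragments of the mitochondrial genome copied into the nucleus share near-identical sequence with these genes, so the origin of some reads is uncertain.

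The size of the compartment difference followed the scale. With the libraries scaled to counts outside the mitochondrial genome, all 10 were called higher in control cultures, at 2.25 to 3.44 (5.63% of all tested genes were), and the median of all tested genes lay at -0.51. With no scaling beyond library totals, 8 of 10 were called in control cultures, at 0.90 to 2.07 (0.342% of all tested genes were), and the median of all genes lay at -1.86. On that scale 49 genes were called higher and 12062 lower among all genes, against 1658 higher and 1084 lower after TMM scaling. Counts outside the mitochondrial genome gave 805 higher and 3261 lower, and the upper quartile gave 1214 higher and 1818 lower. Relative to the median of all tested genes, the median of the 10 was higher by 3.06 after TMM scaling and by 3.03 with library totals. A change of scale shifts all genes nearly alike, so this distance could hardly differ between scales and is no test of them.

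**Figure D2:**
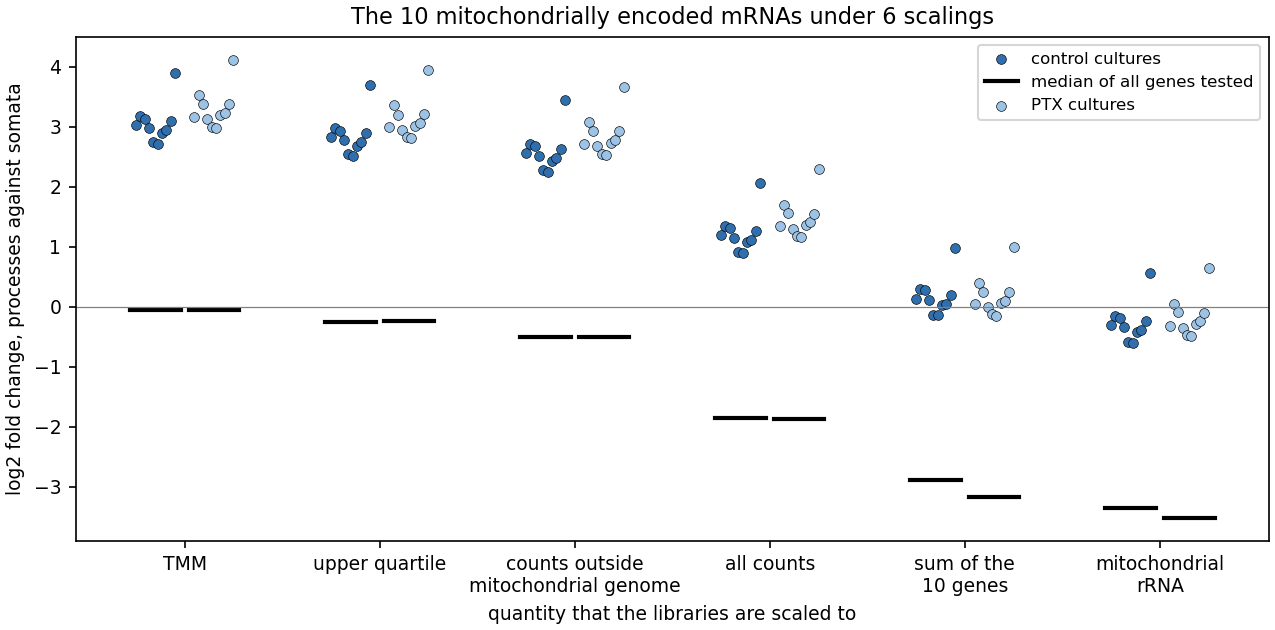
Log2 fold change of processes against somata for the 10 mRNAs (points, in the order Mt-nd1, Mt-nd2, Mt-nd4, Mt-nd5, Mt-cyb, Mt-co1, Mt-co2, Mt-co3, Mt-atp6, Mt-atp8) and the median of all tested genes (black bars) with the libraries scaled to 6 different quantities. The 10 mRNAs lie far above the median gene on every scale, at 2.72 to 3.91 with TMM in control cultures, and fall to -0.60 to 0.57 when scaled to mitochondrial rRNA, where 9 of the 10 are below 0. A change of scale shifts the 10 and the median gene nearly alike, so the gap between them could hardly differ between scales.

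Set against mitochondrial rRNA, the summed reads of the mRNAs were lower in processes, whereas Mt-atp8 in both treatments and Mt-nd2 in PTX cultures had positive values. The 10 genes together had 6.54 to 7.60 reads per 100 mitochondrial rRNA reads in the soma libraries and 4.64 to 5.94 in the process libraries, with no overlap. As a share of all counts they held 1.38 to 1.88% in somata and 3.05 to 4.06% in processes, and as a share of the counts that were not mitochondrial rRNA 1.75 to 2.50% and 8.91 to 12.8%. With libraries scaled to the rRNA, 9 of the 10 had a negative log2 fold change in control cultures, with a median of -0.32, and 8 of 10 in PTX cultures, with a median of -0.27. None was called by adjusted p and the limit on fold change together, where 98.8% of all tested genes were in control cultures and 99.2% in PTX cultures. Nearly all of those genes were lower.

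By adjusted p alone, without the limit on fold change, Mt-co1, Mt-co2, Mt-co3 and Mt-cyb were lower per rRNA in control processes (99.5% of all tested genes were lower by this rule). Mt-co1 stood at -0.60 (SE 0.114, adjusted p = 9.56e-05) and Mt-cyb at -0.58 (SE 0.195, adjusted p = 0.00970). In PTX cultures Mt-co1 and Mt-cyb were lower by the same rule, as were 99.6% of all tested genes. Mt-atp8 was higher per rRNA in both, at 0.57 (SE 0.223, adjusted p = 0.0229) in control and 0.64 (SE 0.225, adjusted p = 0.0120) in PTX cultures, by a rule that called 0.014% and 0.00699% of all tested genes higher. Nearly all tested genes were lower on this scale, so these shares follow from the scale and do not show how unusual Mt-atp8 is. Adjustment changed little, as 5 members in control and 3 in PTX cultures passed by unadjusted p. Mt-atp6, on the same mRNA as Mt-atp8, stood at -0.23 in control and -0.098 in PTX cultures.

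The make-up of the pool of reads from the 10 genes, which does not depend on the scaling of libraries, also differed between the compartments. Mt-atp8 and Mt-atp6 share a single mRNA, so the shares are of reads and not of mRNA molecules. Mt-atp8 made up 0.139 to 0.171% of the summed reads of the 10 genes in soma libraries and 0.286 to 0.375% in process libraries. Mt-nd2 made up 5.21 to 6.10% and 6.95 to 7.95%. Mt-atp6 made up 6.40 to 7.38% and 7.40 to 9.02%, so that its ranges were separate by a narrow margin. The soma and process ranges of the other 7 genes overlapped, among them Mt-co1 with 40.8 to 48.3% of the summed reads in somata and 35.8 to 42.5% in processes. Between libraries of the same treatment and replicate number, the share in processes was lower in 4 of 4 pairs for Mt-co1 and Mt-cyb and higher in 4 of 4 for Mt-nd2, Mt-nd4, Mt-atp6 and Mt-atp8. For Mt-nd1, Mt-nd5, Mt-co2 and Mt-co3 it was higher in 3 of 4. Shares of one gene sum with those of the others to the whole pool, and they are given with no test.

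Mt-atp8 and Mt-atp6 are read from overlapping frames of a single mRNA, as are Mt-nd4l and Mt-nd4, and a read in the overlap has no certain gene. For each 100 Mt-atp6 reads there were 2.20 and 2.49 Mt-atp8 reads in control somata, 2.32 and 2.18 in PTX somata, 4.15 and 3.87 in control processes and 3.62 and 3.96 in PTX processes. The process libraries all lay above the soma libraries, and neither the treatments nor the replicate numbers were separated. For each 100 Mt-nd4 reads there were 22.5 and 16.2 Mt-nd4l reads in control somata, 23.2 and 15.2 in PTX somata, 19.0 and 14.9 in control processes and 19.8 and 14.8 in PTX processes. Here the replicate numbers were separated instead, with every replicate 1 library above every replicate 2 library, and within each number the processes lay below the somata. How reads in the overlaps were assigned is not given in the sources used here.

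**Figure D3:**
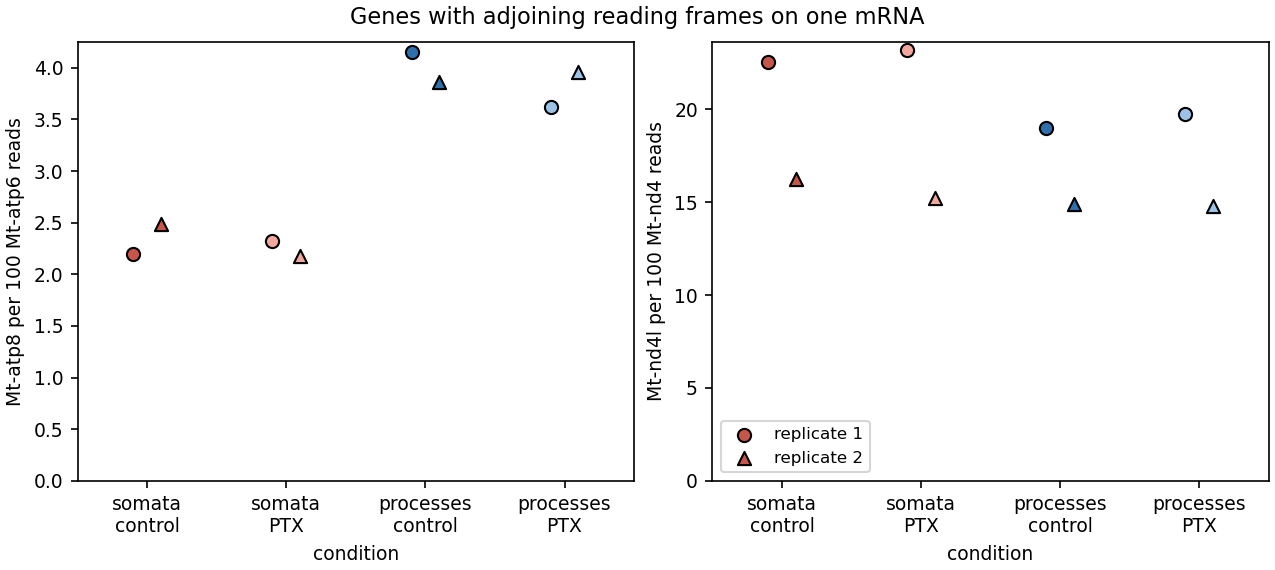
Reads of Mt-atp8 per 100 reads of Mt-atp6 (left) and of Mt-nd4l per 100 reads of Mt-nd4 (right) in each of the 8 libraries, with circles for replicate 1 and triangles for replicate 2. The left ratio separates processes (3.62 to 4.15) from somata (2.18 to 2.49), whereas the right ratio separates replicate 1 (19.0 to 23.2) from replicate 2 (14.8 to 16.2).

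Other shares followed the replicate number as well. Mt-co1 and Mt-nd4 had a higher share of the summed reads in replicate 2 in all 4 conditions. Mt-nd1, Mt-nd2, Mt-nd5, Mt-cyb and Mt-atp6 had a higher share in replicate 1 in all 4. The level of the 10 genes was also mostly higher in replicate 1, for 9 of 10 in control somata, PTX somata and PTX processes and for all 10 in control processes. What the replicate numbers mark is not given in the sources used here.

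The nuclear-encoded subunits of the same complexes had smaller compartment differences. Of 75 tested, 37 were called higher in processes of control cultures and 0 lower (73 had a positive log2 fold change), where 11.6% of all tested genes were called higher, with a median log2 fold change of 1.0, beside -0.05 over all tested genes. In PTX cultures 31 were called higher and 0 lower, with a median of 0.88, where 11.4% of all tested genes were called higher. None of the 75 reached the lowest of the 10 mitochondrially encoded mRNAs in either comparison. The highest was Atp5f1e, the epsilon subunit of the ATP synthase, at 2.14 (SE 0.119, adjusted p = 7.40e-07) in control cultures. Since the scaling sets the zero of both groups alike, the distance between them does not depend on it.

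By complex, 15 of 35 nuclear subunits of complex I were called higher in control cultures (14 with the replicate number as a block), led by Ndufa1 (1.60) and Ndufa6 (1.5). Of all tested genes 11.6% were called higher there, and 1674 of 14309 with the block. None of the 4 complex II subunits was called (0.13 to 0.81), and in a list this short 0 lies near that share. For complex III, 5 of 9 were called, led by Uqcr11 and Uqcrq (both 1.62). For complex IV, 9 of 10 were called, led by Cox6a1 (1.98) and Cox6c (1.68). For complex V, 8 of 17 were called, led by Atp5f1e and Atp5me (1.65).

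**Figure D4:**
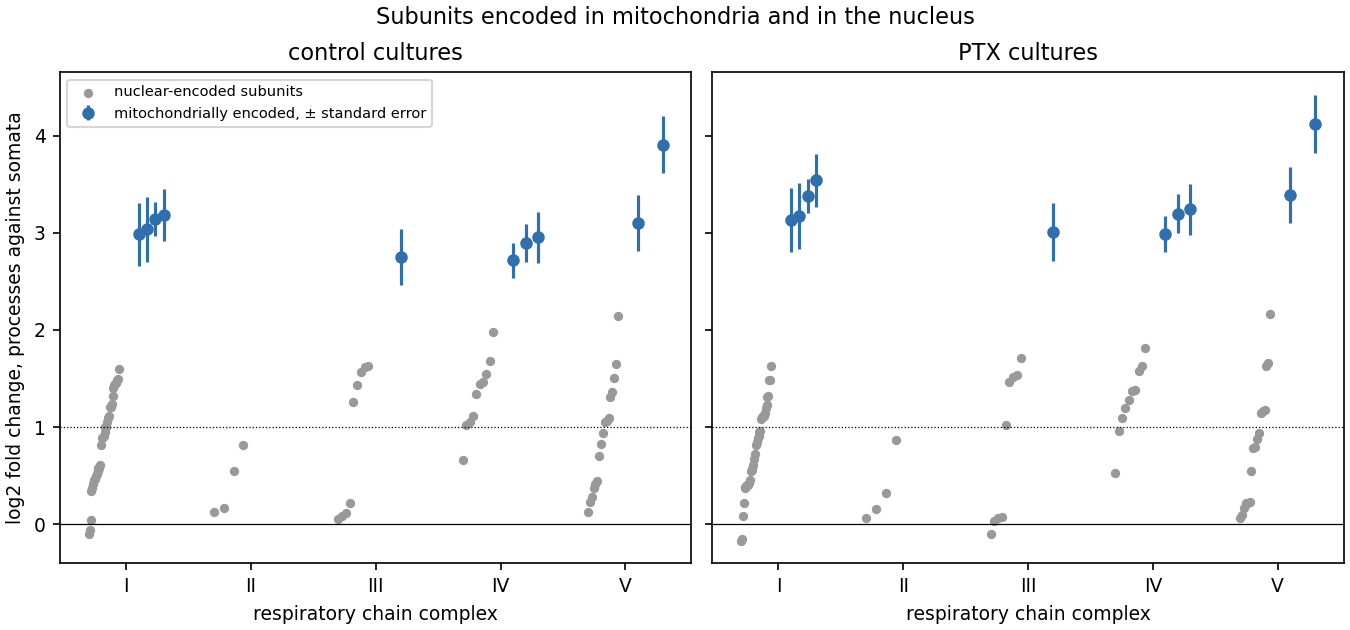
Log2 fold change of processes against somata (TMM scaling) for nuclear-encoded subunits (grey points) and mitochondrially encoded subunits (blue points with standard errors) of respiratory complexes I to V, in control and PTX cultures. In control cultures the mitochondrially encoded genes lie at 2.72 to 3.91 and the nuclear-encoded ones at -0.10 to 2.14, so the 2 groups do not overlap on this or any other common scale, and the dotted line marks the fold limit for a call.

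Genes that act on the mitochondrial genome and its RNA are given beside the 11.6% of all tested genes that were called higher and the 7.58% called lower in control processes. Of 15 genes for mitochondrial DNA replication and transcription, 0 were higher and 2 lower in control processes, Ssbp1 and Mterf1, both with a mean under 5 CPM. Of 18 genes for mitochondrial RNA processing and stability 1 was higher, and its mean, too, was under 5 CPM. Of 12 mitochondrial translation factors 1 was higher, the release factor gene Mtrf1 (1.29, SE 0.149, adjusted p = 5.16e-05). Of 7 regulators of mitochondrial biogenesis none was called in control cultures (-0.37 to 0.48), and 1, Gabpa, a transcription factor subunit, was called higher in PTX cultures (1.01, SE 0.18, adjusted p = 9.07e-04).

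Of 14 genes for the transport and dynamics of mitochondria 8 were higher and 0 lower in control cultures, with a median of 1.18, where 11.6% of all tested genes were higher. They were led by Snph, which encodes the axonal anchor syntaphilin (2.54, SE 0.172, adjusted p = 1.58e-06), and Trak2, a motor adaptor (2.41, SE 0.108, adjusted p = 4.46e-07). In PTX cultures, where 11.4% of all tested genes were called higher and 9.67% lower, 1 of 11 nuclear genes that serve as markers of mitochondrial mass and 8 transport genes were higher and none lower, 1 translation factor was higher, 2 genes for mitochondrial DNA and 1 for RNA processing were lower, 1 of 10 oligodendrocyte markers was called each way, and of 10 neuron markers 2 were higher and 3 lower. Of 9 astrocyte markers 3 were higher and 0 lower there.

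Some astrocyte markers were higher in processes too. Among all tested genes 11.6% were called higher and 7.58% lower in control processes. The summed level of 9 astrocyte markers was 4874 to 5449 CPM in control somata and 15541 to 16757 CPM in control processes. Of the 9, 3 were called higher, led by Gfap (2.60, SE 0.20, adjusted p = 3.15e-06) and S100b (2.16, SE 0.152, adjusted p = 1.94e-06). A positive log2 fold change was found for 7 of the 9, with a median of 0.64 and a lowest value of -0.56. The summed level of 10 neuron markers was 2302 to 2607 CPM in control somata and 5844 to 6393 CPM in control processes, with 2 called higher (Camk2a and Map2, both known for dendritic mRNA) and 1 lower (Syp). Of these 10 only 3 had a positive log2 fold change, and their median was -0.65. The 10 oligodendrocyte lineage markers summed to 352 to 543 CPM and 516 to 658 CPM, with none called (1 lower with the block), 4 of 10 positive and a median of -0.07. Microglia markers summed to at most 2.44 CPM and endothelial markers to at most 0.893 CPM in any library, and Cldn5 was at 0 in all 8. The labelled neurons were thus represented by all 10 of their markers, astrocyte markers were also present, and the part of astrocytes in the compartment difference of the mitochondrial mRNAs was not tested.

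PTX against control was tested next, within each compartment. In somata, all 10 mRNAs had lower mean levels with PTX on the TMM scale (Mt-co1 and Mt-co2 turned on scales set by mitochondrial transcripts), by 12.7% (Mt-co1) to 28.9% (Mt-nd4), with log2 fold changes of -0.49 to -0.20 and a median of -0.37, beside -0.01 over all tested genes. None passed the test (edgeR's quasi-likelihood test, lowest adjusted p = 0.142), where 3.59% of all tested genes did, and 1 of the 10, Mt-nd4, had an unadjusted p below 0.05. DESeq2 called Mt-nd4 lower (adjusted p = 0.0450), as 1.5% of all tested genes. For 7 of the 10 the PTX somata lay below the control somata with no overlap, as for 25% of all tested genes, and the exceptions were Mt-nd1, Mt-nd5 and Mt-atp6.

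The differences between replicates correlated across genes between every 2 conditions, at 0.274 to 0.540, and the replicate number was therefore also fitted as a block. Whether libraries of the same number form true pairs is not given in the sources used here. With the replicate number as a block, 5 of the 10 were called lower in PTX somata, where 6.79% of all tested genes were. They were Mt-nd4 (-0.49, SE 0.120, adjusted p = 0.00612), Mt-cyb (-0.46, SE 0.128, adjusted p = 0.0153), Mt-nd1 (-0.47, SE 0.131, adjusted p = 0.0166), Mt-nd2 (-0.37, SE 0.113, adjusted p = 0.0291) and Mt-nd5 (-0.35, SE 0.117, adjusted p = 0.0479). The other 5 had adjusted p-values from 0.0530 to 0.345. Some of these had values as low as those of called genes, with Mt-atp8 at -0.42 and both Mt-atp6 and Mt-co3 at -0.36. Joined with other scales, the block called Mt-atp6 as well on counts outside the mitochondrial genome and on the upper quartile. It called Mt-co3 as well on the upper quartile, and not Mt-nd5 on library totals. In these joined fits 12.1 to 14.2% of all tested genes were called in either direction. The block was not joined with scales set by mitochondrial transcripts. Whether the complexes differed in their response was not tested. In this blocked fit Mt-nd3, Mt-nd4l and Mt-nd6 were lower too, with adjusted p = 0.0155, 0.00177 and 0.00278, and the 2 rRNA rows were not called (-0.22 and -0.31).

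Within replicate 1 the log2 ratios of PTX to control somata were -0.57 to -0.27 (median -0.43), and within replicate 2 they were -0.51 to -0.12 (median -0.36). All 10 genes were lower with PTX in both. The 10 come from shared long RNAs and mostly moved together within a library. In every comparison, counts over the 10 are thus not counts of independent genes. The unblocked median of the 10 was -0.18 without replicate 1 and -0.53 without replicate 2 of control somata, and -0.56 without replicate 1 and -0.22 without replicate 2 of PTX somata. Without replicate 1 of control somata the unblocked value of Mt-nd5 turned to 0.045, and the other 9 stayed negative whichever library was left out. Scaled to the mitochondrial rRNA, Mt-co1 turned to 0.041 and the median was -0.13.

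The summed neuron markers were 2127 to 2414 CPM and the summed astrocyte markers 3778 to 5064 CPM in PTX somata, both below the control values given above in part of their range, with 1 astrocyte marker (Gja1) called lower. Among the neuron markers 2 were called higher and 2 lower. Of all tested genes 3.59% were called in either direction, and 14% with the replicate block. With the replicate block, in the fit that called 5 of the mitochondrial mRNAs, 2 of 10 neuron markers were higher and 5 lower, and 2 of 9 astrocyte and 2 of 10 oligodendrocyte markers were lower. The median log2 fold changes of these 3 lists without the block were -0.25, -0.24 and -0.22. The part of cell composition in the values of the mitochondrial mRNAs was not tested.

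The nuclear-encoded subunits mostly had values of the opposite sign. In somata 0 of 75 were called with PTX, where 3.59% of all tested genes were. Of the 75, 61 had a positive log2 fold change (median 0.09), while all 10 mitochondrially encoded genes had a negative one. Genes for mitochondrial DNA replication and transcription (0 of 15), RNA processing (0 of 18), translation (0 of 12), biogenesis (0 of 7), transport (0 of 14) and mass (0 of 11) were not called in either direction. In lists this short a count of 0 lies near the share over all tested genes. With the block, 2 nuclear subunits and 2 mass markers were called higher and 2 transport genes lower, where 14% of all tested genes were called in either direction.

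In processes, PTX and control did not differ detectably. The log2 fold changes of the 10 lay between -0.34 (Mt-nd1, SE 0.308) and 0.08 (Mt-co1, SE 0.171), with 0 called by edgeR or by DESeq2 and 0 with an unadjusted p below 0.05 in either, where 3.74% of all tested genes were called by edgeR. With the replicate block 0 were called as well, where 11.2% of all tested genes were, and 1 had an unadjusted p below 0.05. The process libraries of the 2 treatments overlapped for every member, whereas 20.1% of all tested genes were higher and 22.3% lower with PTX without overlap.

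The 2 replicate numbers went opposite ways in processes. Within replicate 1 all 10 were lower with PTX, at -0.66 (Mt-nd1) to -0.03 (Mt-co1), and within replicate 2 all 10 were higher, at 0.04 (Mt-nd4) to 0.30 (Mt-atp8). Without replicate 1 of control processes the median of the 10 was 0.30, and without replicate 2 it was -0.46. Without replicate 2 of PTX processes the median was -0.014, and 4 of the 10 values turned. The sign in processes thus rested on which process libraries were used, most of all on which control. The summed neuron markers were 4452 to 5167 CPM and the summed astrocyte markers 12777 to 14684 CPM in PTX processes, both below the control processes without overlap. Of 10 neuron markers 2 were called higher and 1 lower, and of 9 astrocyte markers 0 were called, where 3.74% of all tested genes were. The median log2 fold changes of the 2 lists were -0.36 and -0.12, with 3 and 1 positive. The part of cell composition in the values of the mitochondrial mRNAs was not tested.

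**Figure D5:**
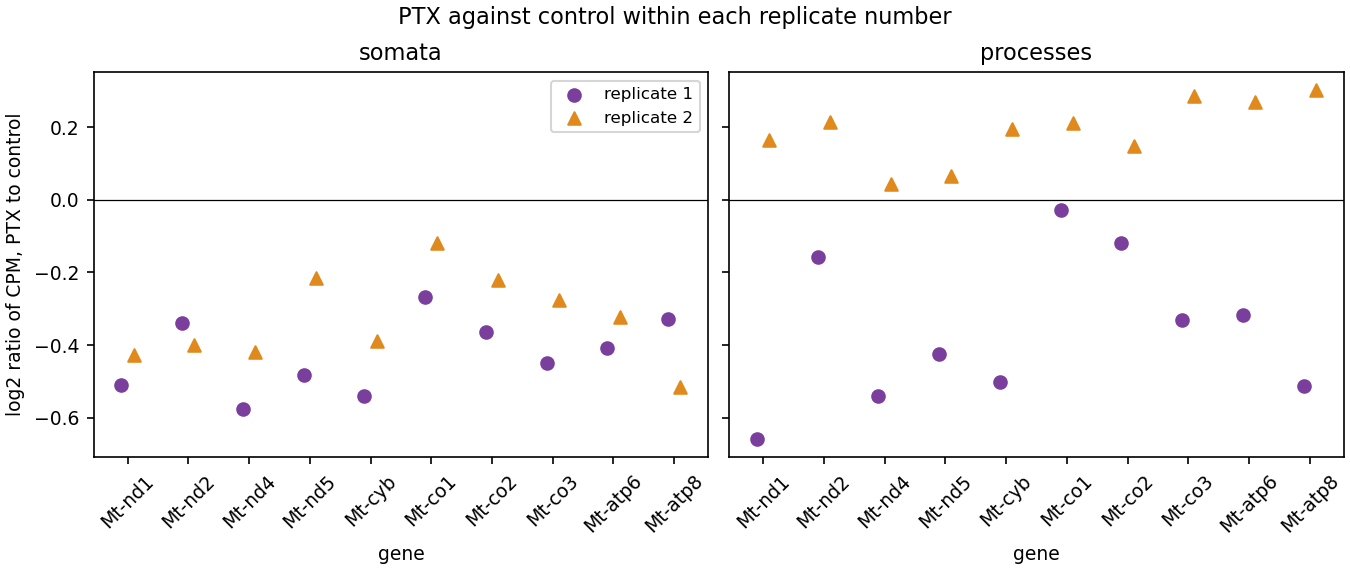
Log2 ratio of PTX to control CPM (TMM scaling) for each of the 10 mRNAs within replicate 1 (circles) and replicate 2 (triangles), in somata (left) and processes (right). In somata the ratios of both replicates are all negative (-0.57 to -0.12) on this scale, whereas in processes all ratios of replicate 1 are negative (down to -0.66) and all of replicate 2 positive (up to 0.30).

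Of the other lists, 1 nuclear subunit was called higher in PTX processes, Ndufa8 of complex I (0.78, SE 0.110, adjusted p = 0.00471), and none of the genes for mitochondrial DNA, RNA, translation, biogenesis, transport or mass was called. Among all tested genes 3.74% were called in either direction, and 11.2% with the block. With the block, 1 gene for mitochondrial DNA (Ssbp1, with a mean under 5 CPM) and 2 transport genes were called higher and 1 transport gene, Snph, lower, as were 3 neuron markers higher and 6 lower. Whether PTX acted differently in the 2 compartments was tested by the interaction. It was positive for all 10 on the TMM scale (0.14 to 0.36, SE 0.225 to 0.436) and negative for Mt-nd1 and Mt-nd5 on the rRNA scale, and none passed, with 0 of the 14309 tested genes called by edgeR and 572 at an unadjusted p below 0.05. DESeq2 called 4 genes and the blocked fit 15 (0.105% of those tested), none of them among the 10. The compartment and treatment comparisons share libraries, so their values are not independent of each other.

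The profile of the 10 over the 8 libraries was finally set beside that of 10190 rows outside the mitochondrial genome with a mean of at least 5 CPM. Likeness was the root mean square difference of centred log2 CPM from the mean of the 10. The closest row was AABR07046778.1, annotated as protein-coding, at 0.125, which is within the range of the members themselves (0.063 for Mt-atp6 to 0.407 for Mt-atp8). It had 84.4 and 70.0 CPM in control somata, 58.0 and 47.9 CPM in PTX somata, 880.5 and 562 CPM in control processes and 645 and 584 CPM in PTX processes. Like most members it was highest in replicate 1 of control processes and lowest in replicate 2 of PTX somata. The next were Unc13c (0.218), Shank3 (0.229), Neurl1 (0.246) and Tsc2 (0.255). With the compartment as the main difference among 8 libraries, any gene of a similar process to soma ratio comes out as like.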

How the data were processed

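Ribosome-depleted RNA of 8 libraries was prepared with a directional kit and sequenced. Per the study's methods the authors trimmed reads with Trimmomatic, aligned them to Rnor 6.0 with Subread and counted them with featureCounts and Ensembl annotation, summing by symbol, whereas the submitters' processing notes name STAR, featureCounts and edgeR. The deposited counts are raw whole numbers. The authors' comparison tables hold log2 fold changes, log2 CPM, likelihood ratios, p-values and FDR, and only their gene types were used here.

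Genes above 20 reads in 2 or more libraries were fitted over all 8 libraries with edgeR 4.0.16 in R 4.3.3 (TMM, 1 coefficient per condition, glmQLFit and glmQLFTest). P-values were adjusted over all 14309 genes (threshold 0.05), and a compartment call required a log2 fold change beyond 1 in either direction. The SE of a log2 fold change was its size over the root of F. Each of the 10 genes had 237 to 268150 reads in a library, a counting error of 6.50% to 0.193%. Alternatives were 6 other scalings, other filters, a likelihood ratio test, DESeq2 1.42.0, a replicate block and single libraries left out. The scripts were tested on simulated data.

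The replicate numbers come from the sample titles. Differences between replicate 1 and 2 correlated across genes at 0.274 to 0.540 over the 6 pairs of conditions, and the blocked fit was therefore also given. The 10 genes and the 18 gene lists were chosen with earlier results of these data known. Named are the 10, the other mitochondrial rows, at most the 2 called genes of a list with the largest change and a mean of at least 5 CPM, and the 5 rows closest in profile. Genes outside this rule were named after their values were seen. Sequences and gene lengths were not used here. The result of 1 listed gene is not reported here.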

Additional observations from a re-analysis of the deposited data

How the results depend on the processing

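With 2 libraries per condition, small differences are limited by replicate spread rather than depth. Compartment calls stayed at 10 of 10 in both treatments under TMM without mitochondrial rows, totals outside the mitochondrial genome, the upper quartile, both other filters, the likelihood ratio test, DESeq2, the replicate block, fits of 4 libraries and every library left out. In these settings, with no library left out, 13.7 to 30% of all tested genes were called in either direction. With library totals 8 members were called in control and 10 in PTX cultures (84.6% and 85.2% of all tested genes, nearly all lower). Scaled to the sum of the 10 genes, 0 were called in control and 1 in PTX cultures (96.9% and 98.3%, nearly all lower). Scaled to mitochondrial rRNA, 0 were called in either (98.8% and 99.2%). The first of these scales removes the shared part of the difference by construction.

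On the sum of the 10, Mt-co1 and Mt-cyb turned to -0.14 and -0.14 in control and to -0.14 and -0.12 in PTX cultures. On the rRNA scale the compartment values of control cultures turned to -0.23 (Mt-atp6), -0.60 (Mt-co1), -0.42 (Mt-co2), -0.38 (Mt-co3), -0.58 (Mt-cyb), -0.30 (Mt-nd1), -0.15 (Mt-nd2), -0.18 (Mt-nd4) and -0.34 (Mt-nd5). Those of PTX cultures turned to -0.098 (Mt-atp6), -0.49 (Mt-co1), -0.29 (Mt-co2), -0.24 (Mt-co3), -0.48 (Mt-cyb), -0.31 (Mt-nd1), -0.084 (Mt-nd4) and -0.35 (Mt-nd5).

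For PTX in somata, 3 members were called lower with no filter on low counts, where 5.04% of all genes in that fit were called in either direction. DESeq2 called 1 (3.52% of all tested genes) and the replicate block 5 (14%), against 0 in the main fit (3.59%). With no filter 9 members had an unadjusted p below 0.05 by the quasi-likelihood test, against 1 in the main fit. The median log2 fold change of the 10 was -0.37 in both. Chosen after seeing the data, the block was joined with library totals (4 called), TMM without mitochondrial rows (5), totals outside the mitochondrial genome (6) and the upper quartile (7). Of all tested genes 12.1%, 14%, 14.2% and 14.2% were called there in either direction. The block was not joined with the sum of the 10 or with rRNA. On these 2 scales the fits without it called 0 members, with medians of -0.07 and -0.13. The block changed no call of the 10 genes in the other comparisons, changed some calls of the nuclear gene and marker lists in each of the 5 (in the interaction, 1 complex I subunit and 1 neuron marker became higher), and moved the count of all genes called in somata from 513 to 2002 and in processes from 535 to 1601. On the sum of the 10, Mt-co1 and Mt-co2 turned to 0.10 and 0.0030, and on rRNA Mt-co1 turned to 0.041. The cause of these differences was not tested.

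For PTX in processes, where no setting called a member, values near 0 turned positive for Mt-co2 and Mt-nd2 with library totals (0.056 and 0.055), totals outside the mitochondrial genome (0.017 and 0.012), the sum of the 10 (0.024 and 0.041), rRNA (0.073 and 0.073), DESeq2 (0.0089 and 0.0023), the block (0.011 and 0.021) and 4 libraries (0.010 and 0.0031). Mt-co2 alone turned with the upper quartile (0.0050) and no filter (0.0042). On rRNA, Mt-atp6 and Mt-co3 turned to 0.0053 and 0.0095. The interaction turned to -0.0041 (Mt-co1), -0.083 (Mt-nd1), -0.025 (Mt-nd4) and -0.11 (Mt-nd5) on the sum of the 10, and to -0.010 (Mt-nd1) and -0.017 (Mt-nd5) on rRNA.

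Over the 8 fits that each left out 1 library, Mt-nd5 with PTX in somata ran from -0.72 to 0.045. In processes the ranges were -0.22 to 0.26 (Mt-co2), -0.47 to 0.44 (Mt-atp6), -0.61 to 0.40 (Mt-atp8), -0.45 to 0.41 (Mt-co3), -0.61 to 0.31 (Mt-cyb), -0.77 to 0.29 (Mt-nd1), -0.34 to 0.42 (Mt-nd2), -0.59 to 0.25 (Mt-nd5) and -0.10 to 0.29 (Mt-co1). For the interaction they were -0.13 to 0.79 (Mt-cyb), -0.30 to 0.76 (Mt-nd1), -0.27 to 0.63 (Mt-nd5), -0.10 to 0.81 (Mt-atp6), -0.21 to 0.81 (Mt-atp8) and -0.081 to 0.78 (Mt-co3). A lone library in a condition was assumed to vary like the others.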
